A study of Mus musculus with 20 samples.

Results

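Choroid plexus epithelium genes were followed across RNA-seq libraries of mouse brain cortex. The genes were Ttr, Kl, Folr1, Clic6, Aqp1, Otx2, F5 and Sostdc1, 8 of the 23413 genes in the count tables, and 8 of 8 were among the 15660 genes that passed the expression filter. Folr1 did not pass it when KD male E59 was left out. The 8 genes were chosen by their role as markers of this epithelium and by their levels in these libraries, with the high values of KD male E59 already known. Their levels in E59 are therefore given as a description, with no test.

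The choroid plexus is a secretory tissue that hangs in the ventricles of the brain, where a single layer of epithelial cells joined by tight junctions covers fenestrated capillaries. These cells make most of the cerebrospinal fluid by moving ions and water, and they load it with carrier proteins, vitamins and growth factors. They are not part of the cortex. Transthyretin, the product of Ttr, is their most characteristic secreted protein and carries thyroid hormone and, bound to retinol-binding protein, retinol.

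The cortex came from 20 APOE4KI mice aged 22 months, in which the human APOE4 allele takes the place of mouse Apoe in every group, so no other APOE genotype serves as a control. From the age of 10 months the mice lived singly and received equal-energy rations of a control diet (CD, written SD in the labels) or of a ketogenic diet (KD), which is rich in fat and almost free of carbohydrate, for 12 months. The libraries, 1 per mouse, came from 5 females and 5 males on CD and from 4 females and 6 males on KD, and mice are called by their E numbers. Which part of the cortex was taken is not given in the sources used here.

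Each library held between 12207161 and 29109990 counts. The 10 libraries numbered E51 to E68 (here series 1) held 21015275 to 29109990, and the 10 numbered E207 to E265 (series 2) held 12207161 to 17697342. This split was inferred from the E numbers, and the sample labels name no series or batch. Levels are given in CPM, counts scaled to a common library total (counts per 1000000), and a count of 0 allows a level of up to 0.103 to 0.246 CPM, depending on the library (3 counts, for counting error only). Xist was at 319 to 1364 CPM in females and at most 7.59 CPM in males. The Y-linked Ddx3y was at 164 to 241 CPM in males and at most 1.64 CPM in females, apart from 14.0 CPM in CD female E228. The level of the mouse Apoe row was 1.33 to 3.34 CPM throughout. Because bulk RNA was measured, fewer cells of a type and less RNA per cell cannot be told apart.

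KD male E59 had the highest level of each of the 8 genes among the 20 libraries. Of the 15660 genes tested, 3.77% were highest in E59, and 0.396% were at least 10-fold above the median of the other 19 libraries there, as all 8 genes were. These genes were chosen with that known, so nothing is read from the count. The plot of the 8 genes by library shows E59 apart from every other library in 7 panels, with Clic6 as the exception.

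**Figure D1:**
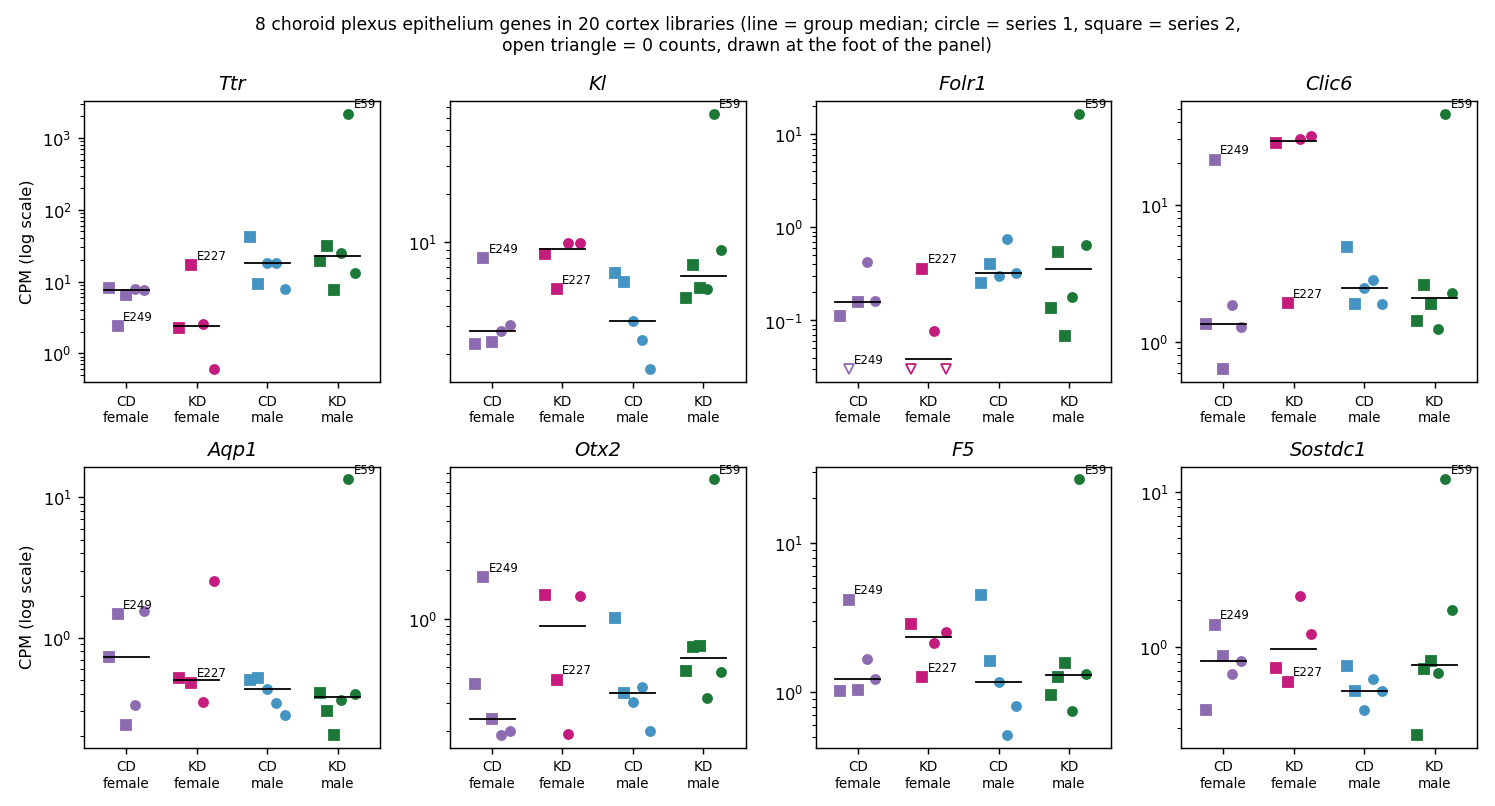
Level of each of the 8 genes (CPM, log scale) in each library, by diet and sex, for 5 females and 5 males on CD and 4 females and 6 males on KD. Points are libraries, the line is the group median, circles are series 1, squares series 2, and open triangles are libraries with 0 counts; KD male E59 is the highest point in each panel, and CD female E249 and KD female E227 lie away from their groups in Clic6.

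Among the genes for secreted proteins, Ttr stood furthest out. E59 had 57441 Ttr counts, or 2187 CPM, 269-fold above the median of the other 19 libraries (8.14 CPM) and 53.1-fold above the next library, CD male E251 at 41.2 CPM. The other KD males had 7.58 CPM (E256), 13 (E64), 19.6 (E213), 25.2 (E53) and 31.0 (E254). The remaining CD males had 7.86 CPM (E66), 9.25 (E264), 18 (E58) and 18.4 (E51), so that without E59 the male groups covered much the same range.

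In females Ttr was at most 16.8 CPM. CD females had 2.38 CPM (E249), 6.51 (E265), 7.70 (E67), 7.85 (E62) and 8.14 (E228). KD females had 0.603 CPM (E68), 2.28 (E207), 2.60 (E61) and 16.8 (E227). The 3 lowest KD females and E249 were the 4 lowest of all 20 libraries, and E227 was the highest female.

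Kl encodes klotho, a transmembrane and shed protein that acts as the co-receptor of FGF23. E59 had 63.5 CPM of Kl, 12.5-fold above the median of the others and 6.39-fold above the next, KD female E61. The other KD males lay between 4.48 and 8.97 CPM and the CD males between 1.61 and 6.40 CPM. CD females had 2.32 CPM (E228), 2.38 (E265), 2.81 (E62), 3.04 (E67) and 7.95 (E249), and KD females had 5.08 CPM (E227), 8.39 (E207), 9.86 (E68) and 9.94 (E61). Apart from E249, every CD female was below every KD female.

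Sostdc1 encodes a secreted antagonist of BMP and Wnt signalling, and F5 encodes coagulation factor V. Sostdc1 was at 12.0 CPM in E59 (315 counts), 16.6-fold above the median of the other libraries, whose highest was 2.14 CPM in E61. F5 was at 26.8 CPM in E59 (704 counts), 21.2-fold above the median, and the next library was CD male E251 at 4.52 CPM, followed by CD female E249 at 4.18 CPM. An antisense gene, Gm16548, shares exonic sequence with F5. It had at most 3 counts in any library.

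Among the genes of transport, Folr1 encodes folate receptor alpha, which carries folate across the epithelium into the cerebrospinal fluid, and Aqp1 encodes the water channel of its apical membrane. Folr1 had 439 counts in E59 (16.7 CPM), 93.5-fold above the median of the others, and 0 to 22 counts elsewhere. The next library was CD male E58 at 0.756 CPM. No Folr1 read was counted in CD female E249 and in KD females E68 and E207, which allows a level of up to 0.246, 0.129 and 0.221 CPM there. Aqp1 had 353 counts in E59 (13.4 CPM), 33.0-fold above the median. KD female E68 followed with 2.54 CPM, then CD females E67 with 1.54 and E249 with 1.47 CPM, and the remaining libraries were at 0.203 to 0.735 CPM.

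Clic6, a member of the chloride intracellular channel family, was the only one of the 8 genes for which E59 had close neighbours. E59 had 46.0 CPM, 24.1-fold above the median of the others but 1.46-fold above the next library. CD females had 0.635 CPM (E265), 1.30 (E67), 1.36 (E228), 1.86 (E62) and 21.3 (E249). KD females had 1.91 CPM (E227), 28.0 (E207), 30.0 (E61) and 31.5 (E68). CD males had 1.89 to 4.96 CPM and the KD males other than E59 1.25 to 2.59 CPM. The high Clic6 libraries besides E59 were thus 3 of 4 KD females and 1 of 5 CD females.

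Otx2 encodes a homeodomain transcription factor that specifies and maintains the choroid plexus. It had 191 counts in E59 (7.27 CPM), 18.4-fold above the median of the others, and 3 to 32 counts elsewhere. CD female E249 was next at 1.80 CPM, with KD females E207 and E68 at 1.40 and 1.38 CPM. The antisense transcript Otx2os1, which overlaps exons of Otx2, had 17 counts in E59 and at most 1 in any other library. Which strand was counted is not given in the sources used here.

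Levels of different genes can be set side by side per kilobase of annotated exon. In E59 they ran from 1844 CPM per kb for Ttr through 11.8 for Clic6, 7.28 for Folr1, 6.81 for Kl, 6.73 for Sostdc1, 5.12 for Aqp1 and 3.61 for F5 to 1.72 for Otx2. As medians of the other 19 libraries the order was Ttr (6.86 CPM per kb), Kl (0.545), Clic6 (0.489), Sostdc1 (0.406), F5 (0.170), Aqp1 (0.155), Otx2 (0.0937) and Folr1 (0.0779). Folr1, the lowest of the 8 in the other libraries, was the third in E59.

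The 8 genes lie on different chromosomes of GRCm38: Ttr on 18, Kl on 5, Folr1 on 7, Clic6 on 16, Aqp1 on 6, Otx2 on 14, F5 on 1 and Sostdc1 on 12. Of these, 4 have entries in the RefSeq promoter table (GRCm38.p6) with 7 windows. The 250 bases before the annotated start are shown for Kl, Aqp1 and F5, to let the promoters of genes that were high together in E59 be read side by side. They run 5′ to 3′ in the direction of the gene.
Kl, chr5:150952357-150952606, plus strand: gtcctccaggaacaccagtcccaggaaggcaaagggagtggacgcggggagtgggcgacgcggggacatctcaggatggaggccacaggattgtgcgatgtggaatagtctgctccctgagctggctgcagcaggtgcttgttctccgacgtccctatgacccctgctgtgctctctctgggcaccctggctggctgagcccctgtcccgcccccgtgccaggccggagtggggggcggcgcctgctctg
Aqp1, chr6:55336049-55336298, plus strand: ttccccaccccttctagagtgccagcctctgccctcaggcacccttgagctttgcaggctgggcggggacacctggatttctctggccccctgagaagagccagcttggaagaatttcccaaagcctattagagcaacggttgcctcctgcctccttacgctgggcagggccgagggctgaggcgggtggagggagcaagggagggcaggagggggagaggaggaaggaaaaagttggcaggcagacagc
F5, chr1:164151585-164151834, plus strand: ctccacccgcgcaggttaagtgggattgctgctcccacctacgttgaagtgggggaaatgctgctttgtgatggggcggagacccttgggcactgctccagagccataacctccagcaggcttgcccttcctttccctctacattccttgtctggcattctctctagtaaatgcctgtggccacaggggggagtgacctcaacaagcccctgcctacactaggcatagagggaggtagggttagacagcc

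The windows were searched on both strands for TAATCC, the core bound by OTX2, GTAAACA, a forkhead core, TGACG, the short core of the cAMP response element, and TATAAA, the TATA box core. None of these letters was found in the Kl, Aqp1 and F5 windows. Over 32851 windows of the same length, TAATCC was in 6.25%, GTAAACA in 3.17%, TGACG in 17.8% and TATAAA in 12.4%. Of the 4 Otx2 windows, one held TATAAA 192 bases before the start, one held TGACG on the opposite strand, and one held TAATCC on the opposite strand, 211 bases before the start. The stretch of 30 bases around the last of these is shown, with GGATTA, the reverse complement of TAATCC, in capitals.
Otx2, chr14:48665303-48665332, minus strand: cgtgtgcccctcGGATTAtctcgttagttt

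These matches are letters in a window, and no binding was measured.

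Further genes of the choroid plexus epithelium, which were not among the 8, were also high in E59. Of 36 listed, 22 passed the expression filter, and 14 of the 22 (63.6%) were highest in E59, against 3.77% of all genes tested. The list was written with the E59 values of the 8 genes known. The filter counts E59 itself, so a gene can pass it through its level there, as Folr1 did, and nothing is read from this share. The genes named next, from Tmem72 to Slc2a12, were picked by their highest over their median library, a ratio that E59 can set. Tmem72, a transmembrane protein gene, was at 15.8 CPM in E59 against a median of 0.181 and at most 0.901 CPM in the other libraries. Prlr, the prolactin receptor, was at 45.3 CPM against 4.20 (highest 18.3), and 1500015O10Rik, which encodes the secreted peptide augurin, was at 22.8 against 1.55 CPM (highest 4.54).

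Car12, a membrane-bound carbonic anhydrase, was at 66 CPM in E59 against a median of 6.72 (highest 44.5, in KD female E207). Abca4, a lipid transporter, was at 21.8 against 3.90 CPM, Lbp, the lipopolysaccharide-binding protein, at 6.85 against 1.25, Col8a2, a short-chain collagen, at 12.7 against 2.58, and Slc2a12, a sugar transporter, at 23.8 against 5.46. In each of these 4 genes E59 lay above every other library. Enpp2, the gene for autotaxin, which oligodendrocytes also express, had the highest mean of the list and was at 1549 CPM in E59 against 186 to 528 CPM elsewhere. Cab39l, the next, was at 85.5 against 48.8 to 68.6 CPM.

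Among genes too low to pass the filter, chosen here after their values were seen, Slc4a5, the bicarbonate transporter of the apical membrane, was at 12.9 CPM in E59 and at most 0.564 CPM elsewhere. Cldn2, a tight junction protein of this epithelium, was at 13.1 CPM and at most 0.612 CPM elsewhere, and Kcne2, a potassium channel subunit, was at 8.95 CPM and at most 0.565 CPM elsewhere. The list did not move as a whole. Slc22a8, an organic anion transporter, was at 10.3 CPM in E59 and 12.3 CPM in the median library, Slc13a4 was at 17.1 CPM against 14.3, and Htr2c, the serotonin receptor 2C, at 60.5 against 38.7 with its highest value, 169 CPM, in E249. Mfrp had no count in any library, and Msx1 had none in E59.

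**Figure D2:**
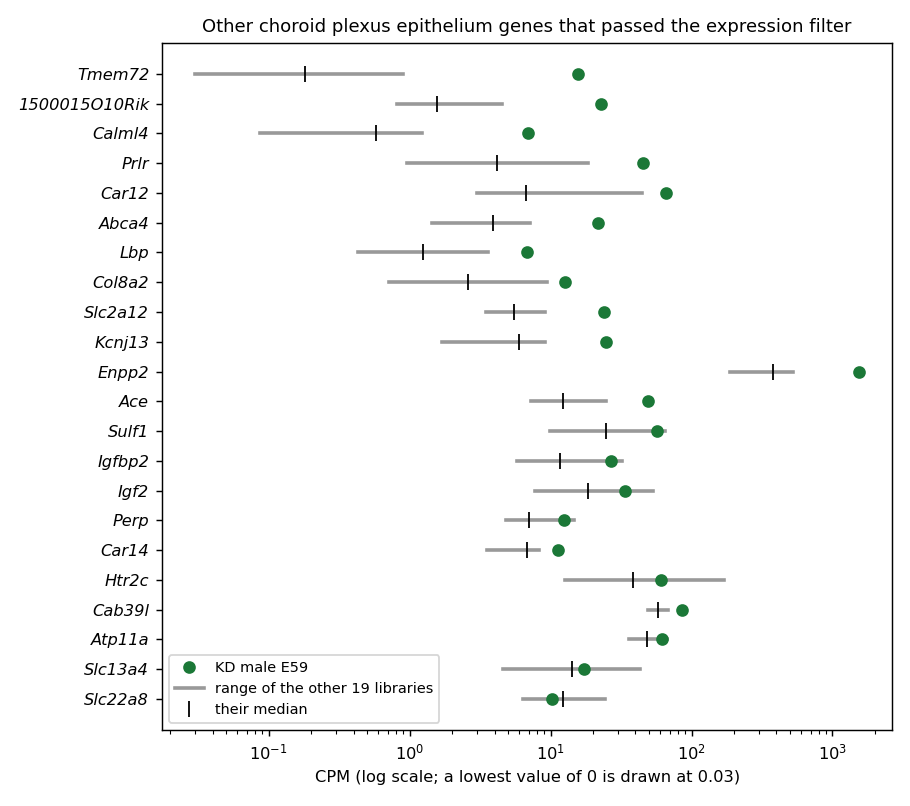
Level (CPM, log scale) of the 22 further choroid plexus epithelium genes that passed the expression filter, in KD male E59 (green point) and as the range (grey bar) and median (tick) of the other 19 libraries. E59 lies beyond the range for 14 of the 22, among them Tmem72 at 15.8 CPM and Enpp2 at 1549 CPM, and within it for Slc22a8, Slc13a4, Htr2c, Atp11a, Perp, Igf2, Igfbp2 and Sulf1.

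The summed markers of the cells next to the epithelium were within the range of the other libraries in E59. The summed level of 20 ependymal genes was 42.2 CPM in E59 and 16.8 to 73.8 CPM in the other libraries, and that of 20 leptomeningeal fibroblast genes was 123 CPM against 77.3 to 622 CPM. Fenestrated endothelium genes summed to 237 CPM in E59 (others 188 to 326), endothelial genes to 394 CPM (326 to 528), mural cell genes to 183 CPM (138 to 323), border macrophage genes to 20.6 CPM (13.6 to 56.2) and blood genes to 32.2 CPM (28.2 to 119). Each sum is carried by its most abundant genes, so the level of a single marker, such as 1 of the fenestrated capillaries, cannot be read from it. Gene by gene, 4 of 19 tested ependymal genes (21.1%), 1 of 5 fenestrated endothelium genes and 1 of 10 mural cell genes were highest in E59, against 3.77% of all tested genes, and none of the tested leptomeningeal, endothelial, border macrophage and blood genes was. The further choroid plexus genes summed to 2277 CPM in E59 against 606 to 953 CPM, and most of the sum in E59 was Enpp2.

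Striatal genes were high in E59 as well. The sum of 20 striatal genes was 4316 CPM in E59, the highest of all libraries and 8.99-fold above the median of the others. That of the further choroid plexus genes, most of it Enpp2 in E59, was 3.29-fold above the median of the others. Of the 20 striatal genes 14 (70%) were highest in E59. Drd1a, the D1 dopamine receptor, was not, at 299.5 CPM in E59 against 326 CPM in the highest other library. Pde10a was at 1108 CPM in E59. Genes of basal forebrain cholinergic neurons summed to 90.6 CPM, the fifth of the 20 libraries. Slc17a7, the vesicular glutamate transporter of cortical excitatory neurons, was at 406 CPM, within the 150 to 607 CPM of the others, and genes of hippocampus and thalamus were within the range of the other libraries. The part of other brain tissue in the levels of the 8 genes was not tested.

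**Figure D3:**
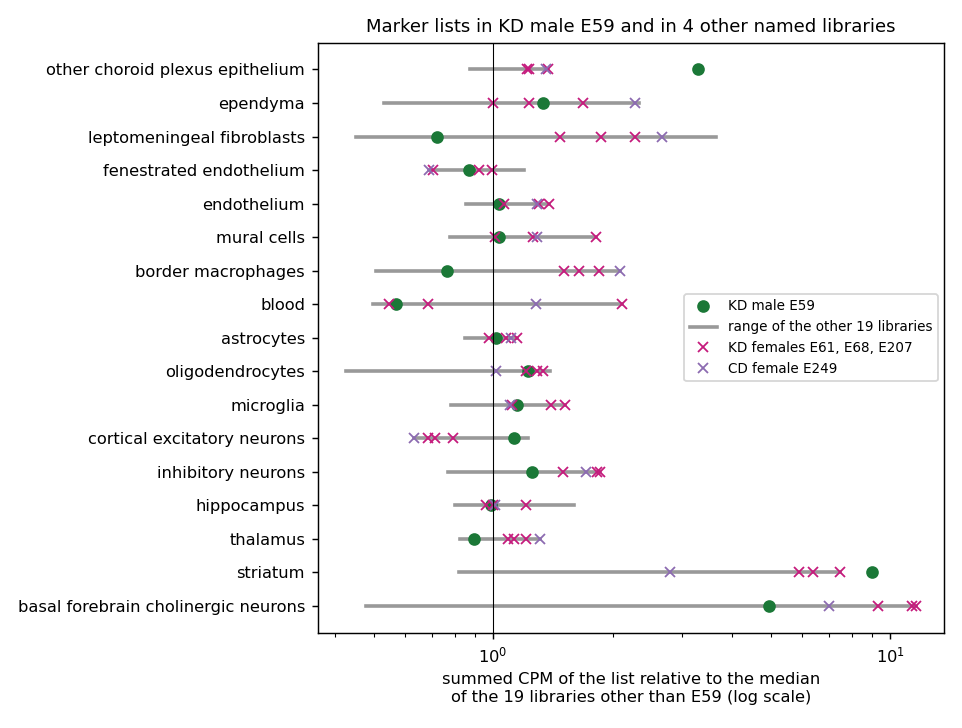
Summed CPM of each marker list, divided by the median of the 19 libraries other than E59 (log scale), in KD male E59 (green point), in KD females E61, E68 and E207 (pink crosses) and in CD female E249 (purple crosses), with the range of the 19 as a grey bar. E59 lies beyond the other libraries in the choroid plexus and striatal lists, and the 4 crosses lie above the median in the striatal and cholinergic lists, with E249 the lowest of them in both, and near the foot in the cortical excitatory list.

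Outside E59 the 8 genes did not move as a unit. The 4 libraries with the next highest Clic6 (21.3 to 31.5 CPM), E61, E68, E207 and E249, had the 4 lowest Ttr levels (0.603 to 2.60 CPM) and 0 to 2 Folr1 counts. Their ratio of Clic6 to Ttr was 8.97 to 52.3, where it was 0.0496 to 0.25 in the 15 remaining libraries and 0.021 in E59. Kl in these 4 libraries was at 7.95 to 9.94 CPM and F5 at 2.14 to 4.18 CPM, while Aqp1 ranged from 0.349 to 2.54 CPM, Sostdc1 from 0.736 to 2.14 CPM and Otx2 from 0.194 CPM, the second lowest of all libraries, in E61 to 1.80 CPM in E249.

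The same 4 libraries had Drd1a at 133 to 326 CPM, against 15.5 to 58.1 CPM in the 15 remaining libraries, and Slc17a7 at 150 to 195 CPM against 201 to 607 CPM. Their striatal genes summed to 1336 to 3601 CPM against 395 to 831, and their basal forebrain cholinergic genes to 128 to 212 CPM against 8.74 to 38.2. The part of these tissues in the Clic6 and Kl levels was not tested. The further choroid plexus genes summed to 841 to 953 CPM in the 4 libraries, against 606 to 777 CPM in the 15. These sums include Enpp2, the most abundant gene of the list, and Htr2c, which was highest in E249. In E249 alone of the 4, Slc4a5 is given here at 0.164 CPM, Cldn2 at 0.246 CPM and Kcne2 at 0.0819 CPM. None of these is above the 0.246 CPM that a count of 0 allows in E249. The highest levels of these genes outside E59 are given above.

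**Figure D4:**
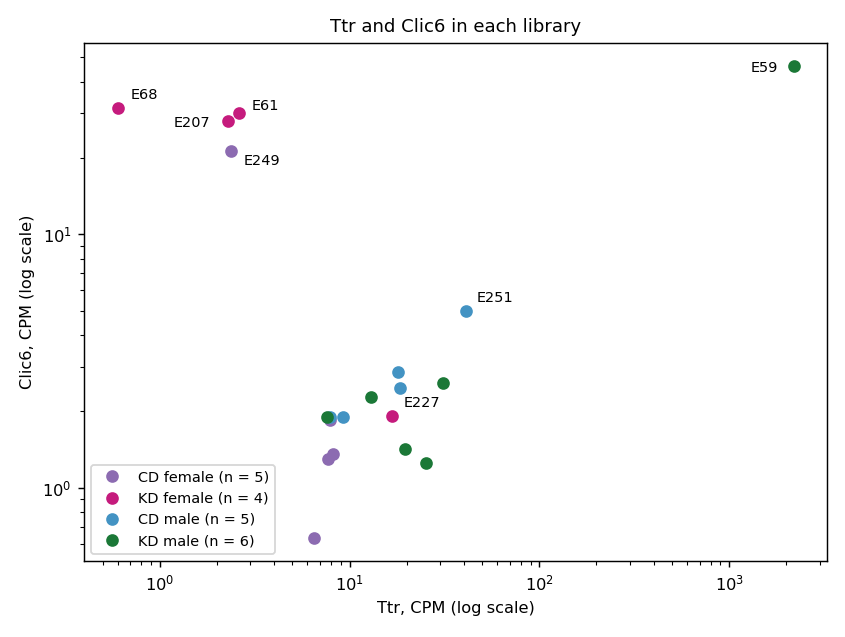
Level of Clic6 against that of Ttr in each of the 20 libraries (CPM, both axes on a log scale), coloured by diet and sex. E59 lies alone at the upper right, E61, E68, E207 and E249 lie at the upper left with Clic6 at 21.3 to 31.5 CPM and Ttr at 0.603 to 2.60 CPM, and the remaining 15, KD female E227 among them, have Clic6 at 0.635 to 4.96 CPM.

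Correlations between the genes depended on E59. Over the 20 libraries the 28 pairs of genes had a median Pearson r of log2 CPM of 0.66 and a median Spearman rho of 0.35, and 17 of the 28 rho were above 0. Without E59 the medians were 0.25 and 0.24, and without E59 and E249 0.16 and 0.16. All are descriptions over 20, 19 and 18 libraries that share depth, tissue composition and, in part, diet.

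Ttr and Folr1 went together in each set, with r of 0.90 over 20, 0.73 over 19 and 0.70 over 18 libraries. Folr1 had 0 to 22 counts outside E59, so its r values there rest on few reads and on the prior count. Against the mean of the other 7 genes, Ttr had r of 0.51 over 20 libraries and -0.50 over 19, and Folr1 0.55 and -0.51. Kl, in contrast, had r of 0.88 and 0.76, and F5 0.89 and 0.67. Ttr and Clic6 had r of -0.68 over the 19 libraries, and Kl and Clic6 0.69.

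The genes most like the 8 were sought by the r of each other tested gene with the mean z-score of the 8. Over 20 libraries the first were Tmem72 (0.91), Slc2a12 (0.90) and Abca4 (0.85), which are on the choroid plexus list, followed by Slc37a2 (0.84), Oca2 (0.83), Me2 (0.83), Krt10 (0.79), Rbm47 (0.79), Gpr155 (0.79) and Tbc1d8 (0.77). Over the 18 libraries without E59 and E249 the first 10 shared 0 genes with these. They were Adcyap1r1 (0.84), Hist2h2be (0.82), Atp6v1c2 (0.81), BC064078 (0.80), Ngb, Kcnn3, Pcdhb1, Tacr3, Frem3 and Fhl1 (each 0.79), and none was on the choroid plexus list.

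Taken alone over the 19 libraries without E59, a comparison chosen after the data were seen, Clic6 was most like Slc5a7, the choline transporter of cholinergic neurons (r 0.95). The first 10 also held Upb1 (0.95), P2ry1 (0.95), AI606473 (0.94) and Drd1a (0.94), with Lhx8, a factor of basal forebrain cholinergic neurons, the tenth (0.94). Ttr was most like Plb1 (0.87), Efcab6 (0.87) and Brd9 (0.87), and none of its first 10 was on any marker list. Over these 19 libraries neither gene had a choroid plexus gene among its first 10.

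The comparison of the diets asks whether KD feeding changed these genes in each sex. The diet effect is the fitted log2 fold change of KD over CD with its SE, called at FDR 0.1 and 1.5-fold by edgeR's quasi-likelihood F test across all genes. In females 0 of the 8 genes were called, where 0.0447% of all tested genes were, and 5 were higher and 3 lower, against 52.7% of all genes higher. The median of the 8 was 0.20, and that of all tested genes 0.01. At an unadjusted p under 0.05 there were 0 of 8, against 11.4% of all genes. DESeq2's Wald test also called 0 of the 8 in females, in males and for the interaction.

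Clic6 and Kl had the largest differences in females. Clic6 averaged 22.8 ± 14.0 CPM in KD females (SD, n = 4) and 5.29 ± 8.96 CPM in CD females (n = 5). Its log2 fold change was 1.84 ± 1.17 (SE) with an adjusted p of 0.611, and 3 of 4 KD females were above the highest CD female. In an exact two-sided permutation test of the log2 CPM the p was 0.0556. Kl averaged 8.32 ± 2.27 CPM in KD and 3.70 ± 2.39 CPM in CD females, with a log2 fold change of 1.06 ± 0.72 (adjusted p 0.645) and an exact permutation p of 0.0238, unadjusted over 16 such tests, where the smallest p that 126 splits allow is 0.00794. Both pairs of groups overlapped through E249 and E227.

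The other genes differed less in females than their error. Otx2 had a log2 fold change of 0.62 ± 1.01, Sostdc1 0.21 ± 0.80, F5 0.20 ± 0.98, Ttr -0.18 ± 1.49, Aqp1 -0.19 ± 1.08 and Folr1 -0.83 ± 1.81. Ttr averaged 6.51 ± 2.40 CPM in CD and 5.57 ± 7.54 CPM in KD females, of which the 3 other than E227 averaged 1.83 ± 1.07 CPM. Without E227 its log2 fold change was -2.36 (adjusted p 0.590). With all libraries an approximate 95% interval of its log2 fold change, from an SE derived from the F statistic, ran from -3.17 to 2.81. Changes in either direction are within it. Exact permutation p values of these 6 genes were 0.302 to 0.992.

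The female values turned on single libraries. Without CD female E249, Clic6 was called higher in KD females (log2 fold change 4.07 ± 1.08, adjusted p 0.0361), in a fit that called 6.66% of all tested genes in either direction. Without E249 and E59, which share the estimate of the spread, 3 of the 7 genes that passed the filter were called higher, in a fit that called 7.04% of all tested genes: Clic6 (4.05 ± 0.61, adjusted p 0.00355), Kl (1.60 ± 0.36, adjusted p 0.0145) and Otx2 (1.67 ± 0.56, adjusted p 0.0926). These libraries were left out because they were known to stand apart in these same genes. E249 is the highest CD female in Clic6, Kl and Otx2, so leaving it out raises their differences and nothing is read from these calls. Without KD female E227, the lowest KD female in Clic6, 0 of 8 genes were called, with 5.68% of all tested genes called. Folr1 was too low to be fitted without E59, while without E249 alone it was fitted (log2 fold change -0.98). Striatal Drd1a moved with Clic6 across the same libraries, as given above.

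By library series, the female log2 fold change of Clic6 was 4.25 in series 1 (E61 and E68 against E62 and E67, adjusted p 0.198) and 0.90 in series 2 (adjusted p 0.856), where E249 is a CD female and E227 a KD female. For Kl it was 1.72 and 0.62. For Ttr it was -2.30 in series 1 and 0.67 in series 2. None of the 8 genes fitted in series 1 and the 7 fitted in series 2, without Folr1, was called, where 5.42% and 0% of all tested genes were called.

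In males E59 is one of the 6 KD libraries, so the contrast holds the values by which the genes were chosen, and nothing is read from its direction. All 8 log2 fold changes were above 0, with a median of 2.01, and 0 of the 8 were called, as were 0% of all tested genes. They ran from 1.56 ± 1.09 for Clic6 to 3.96 ± 1.5 for Ttr, against 49.1% of all tested genes above 0. An unadjusted p under 0.05 was found for 6 of the 8, against 2.37% of all genes higher and 3.56% in either direction. Folr1, which did not pass the filter without E59, is among the 6. Each adjusted p was 0.9998.

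Without E59 the male differences went both ways. The median of the 7 genes fitted was -0.028, 3 of 7 were higher, and 0 of 7 were called in either sex, with 0% of all genes called in males and 0.245% in females. Ttr averaged 19.3 ± 9.32 CPM in the 5 KD males other than E59 and 18.9 ± 13.3 CPM in CD males, with a log2 fold change of -0.028. Clic6 was at -0.65, F5 at -0.52, Aqp1 at -0.25, Otx2 at 0.10, Sostdc1 at 0.63 and Kl at 0.70. Kl, with 6.18 ± 1.86 against 3.86 ± 2.07 CPM, had an unadjusted p of 0.0750 and an adjusted p of 0.9995.

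By library series, the 8 male log2 fold changes had a median of 3.46 in series 1, which holds E59, and the 7 genes fitted in series 2 had a median of -0.38 with 0 of 7 higher. Exact permutation p values with E59 included were 0.0628 for Kl and 0.251 to 0.955 for the other 7, where 462 splits allow a smallest p of 0.00216. In no gene were the KD and CD groups of a sex without overlap, while 2.1% of all tested genes did not overlap in females and 0.217% in males.

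The interaction, the female minus the male diet effect, holds E59 through the males, so nothing is read from its direction. It had a median of -1.62 over the 8 genes with 1 of 8 above 0, against 51.3% of all tested genes. Without E59 the median of the 7 genes fitted was 0.51. In the fit of all 20 libraries none of the 8 was called, as was 0% of all tested genes. There 0 of 8 had an unadjusted p under 0.05, against 2.14% of all genes, and each adjusted p was 0.9999. Without E59 and E249 the interaction of Clic6 was called (log2 4.61 ± 0.80, adjusted p 0.0420), with 0.193% of all genes called, and 6 of 7 genes were above 0. This fit holds 4 KD and 4 CD females. E249 was left out with its high Clic6 known, so nothing is read from the call.

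**Figure D5:**
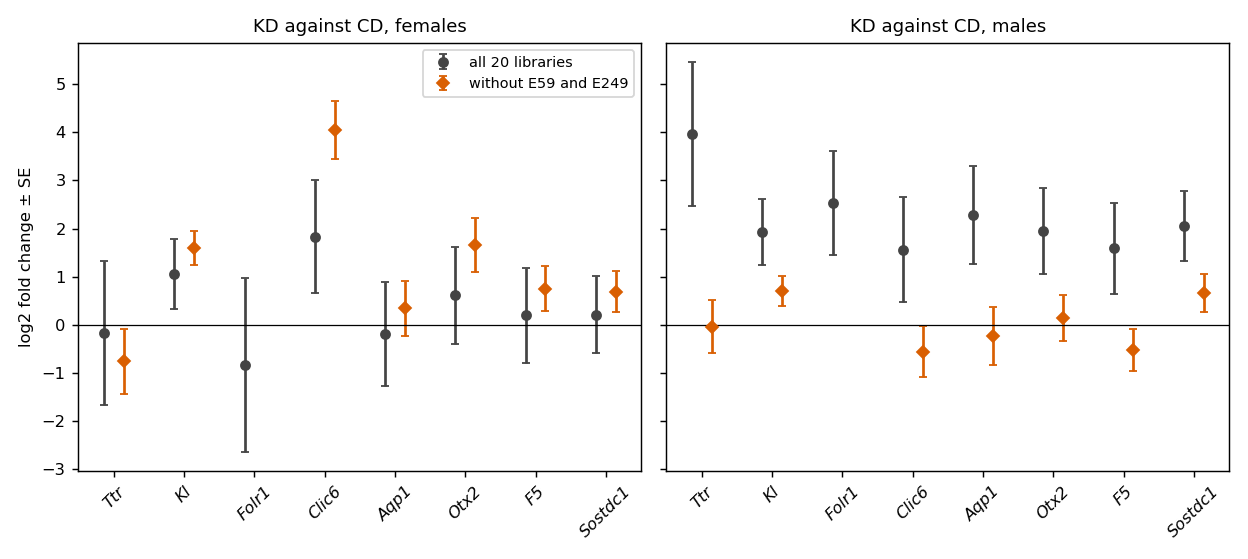
Log2 fold change of KD over CD with its SE for each of the 8 genes in females (left) and males (right), from the fit of all 20 libraries (grey circles) and of the 18 without KD male E59 and CD female E249 (orange diamonds; Folr1 could not be fitted). In females Clic6 goes from 1.84 to 4.05 and Kl from 1.06 to 1.60, and in males Ttr goes from 3.96 to -0.037.

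The pathways in which the 8 genes act were followed by lists of their other members. Of 22 tested genes of cerebrospinal fluid secretion and ion transport, 0 were called in females or males, where 0.0447% and 0% of all tested genes were, and 5 of the 22 (22.7%) were highest in E59, against 3.77% of all tested genes. Their sum was 4938 CPM in E59 and 4187 to 4924 CPM elsewhere. The list shares genes with that of the further choroid plexus genes, among them Car12, which was highest in E59. Of its abundant genes, the sodium pump subunit Atp1b1 was at 1392 CPM in E59 and at 1141 to 1599 CPM in the others. Of 14 genes of thyroid hormone and retinol transport, which bear on transthyretin, 0 were called, 1 was highest in E59, and their median log2 fold changes were 0.01 (females) and 0.12 (males).

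None of 13 tested folate genes, 8 genes around klotho and FGF signalling, 20 genes of the BMP and Wnt pathways that Sostdc1 acts on, and 14 coagulation genes was called in either sex, and none was highest in E59, where the shares of all tested genes are those just given, so that counts of 0 say little about these lists. The other 4 chloride intracellular channel genes were near the rest of the libraries, with Clic4 at 98.9 CPM in E59 against a median of 95.2 CPM. The water channel of astrocytes, Aqp4, was at 172 CPM in E59 and at 126 to 362 CPM elsewhere. Among factors that pattern the choroid plexus, Lmx1a, a regulator of the roof plate from which it forms, was at 1.64 CPM in E59 and at most 0.410 CPM elsewhere, a value chosen after it was seen.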

How the data were processed

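RNA-seq libraries of the cortex of 20 APOE4KI mice were analysed, 1 per mouse. The authors made stranded total RNA libraries, sequenced read pairs, aligned them to mm10 with STAR and deposited raw counts of reads per gene, without normalization. The versions of the aligner and annotation, and the strand counted, are not given in the sources used here. Groups came from the sample labels, and the library series was inferred from the E numbers, since the labels name no batch.

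From the deposited counts, CPM by library total was computed, and its log2 value was taken after a prior count of 2. For the diet comparison, genes kept by filterByExpr were fitted in edgeR 4.0.16 (R 4.3.3), with upper-quartile normalization, 4 groups and the library series in 1 fit, the robust quasi-likelihood F test, Benjamini-Hochberg adjustment over 15660 genes, and calls at FDR 0.1 and 1.5-fold. The test was checked on simulated counts. Single genes were compared with exact two-sided permutation tests of log2 CPM in Python 3.11.15 with numpy 2.4.6. The study's methods name RUVg without the number of factors, so that it was used as an alternative.

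The 8 genes and all lists were chosen with earlier results of these data known. The text names the 8 genes, the label-check genes, of each list the genes called and the 2 of highest mean CPM, the 8 further choroid plexus genes of highest maximum over median with a mean of at least 1 CPM, the 10 genes most like the 8, and genes that overlap them, except that some of these are not reported here. Others were named after their values were seen, as the text says or, for Drd1a, Slc22a8, Slc13a4 and Htr2c, as is said here. Alternatives were RUVg, TMM and size factors of DESeq2 1.42.0 and its Wald test, a likelihood ratio test in edgeR, a fit without the series, each sex or series alone, a minimum of 10 counts per library, no filter on low counts, another threshold, and leaving libraries out. Promoter windows came from RefSeq (GRCm38.p6) and gene positions from GENCODE M21.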

Additional observations from a re-analysis of the deposited data

Results flagged for a closer look

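In each group of mice, each of the 8 genes and the mean z-score of the 8 was examined for 1 library set apart from the rest, by the gap to its nearest neighbour divided by the range of the group (on log2 CPM, against Dixon's 95% critical value). Of 36 such groups 12 had a library set apart. Chance sets apart about 1 in 20 such groups, but the 12 are not read against that share, since E59, by which the genes were chosen, is among them.

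KD male E59 accounted for 8 of the 12. The ratios were 0.864 for Aqp1, 0.841 for the mean z-score, 0.807 for F5, 0.805 for Clic6, 0.786 for Otx2, 0.753 for Ttr, 0.74 for Kl and 0.675 for Folr1, each with E59 as the highest of the 6 KD males. Since the genes were chosen with E59 known, these ratios are a description.

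CD female E249 accounted for 3, as the lowest CD female in Ttr (0.817) and the highest in Kl (0.782) and Otx2 (0.715). KD female E227 accounted for 1, as the lowest KD female in Clic6 (0.957), at 1.91 CPM where the other 3 had 28.0 to 31.5 CPM. In the same libraries Drd1a was at 133 CPM or above in E249 and in the other 3 KD females. What sets E249 and E227 apart was not tested.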

How the results depend on the processing

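The counts of 0 called genes in females, in males and for the interaction were the same under the size factors of DESeq2, TMM normalization, RUVg with 1 factor, a minimum of 10 counts per library (3 genes left), no filter on low counts, a fit with no series term, each series alone (7 genes fitted in series 2), the likelihood ratio test, DESeq2's Wald test and FDR 0.05 with no fold threshold. With each sex fitted separately they were 0 in both sexes, and no interaction can be fitted. They changed without E59 and E249, to 3 in females and 1 for the interaction. With 1 library left out they were 0 to 1 in females, with Clic6 called without E249. E249 was known to be the highest CD female in Clic6, Kl and Otx2, so nothing is read from these changes. Among all tested genes the calls in females were 7 in the fit of 20 libraries, 97 with RUVg, 220 with the likelihood ratio test, 253 with DESeq2, 865 in series 1, 0 in series 2, 906 without E227, 1046 without E249 and 1095 without E59 and E249.

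The median log2 fold change of the genes in males was 3.46 in series 1, -0.38 in series 2 and -0.037 without E59 and E249, and -0.028 (without E59) to 2.40 (without E251) with 1 library left out. That in females, 0.20, was 0.89 in series 1, 0.11 in series 2 and 0.76 without E59 and E249, and 0.0031 (without E67) to 0.72 (without E249) with 1 library left out. It stayed above 0 under each alternative, and these moves were below 1.04, the within-group SD of the mean of the 8 genes, which includes E59.

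Directions of single genes changed as follows. In series 2 alone the log2 fold changes were Ttr 0.67, F5 -0.061 and Sostdc1 -0.45 in females, Ttr -0.38, Kl -0.086, Clic6 -0.78, Aqp1 -0.73, Otx2 -0.14, F5 -1.27 and Sostdc1 -0.054 in males, and Ttr 1.05, Kl 0.71, Otx2 0.25 and F5 1.21 for the interaction. Aqp1 in females was at 0.57 in series 1, 0.15 with no series term, 0.16 with RUVg and 0.34 without E59 and E249. Without both libraries the males had Ttr -0.037, Clic6 -0.55, Aqp1 -0.23 and F5 -0.52, and the interaction had Kl 0.90, Aqp1 0.57, Otx2 1.53, F5 1.27 and Sostdc1 0.033. With 1 library left out the ranges that crossed 0 were Ttr -2.36 (without E227) to 0.38, Folr1 -3.05 to 0.076, Aqp1 -0.93 to 0.29, F5 -0.060 to 0.79 and Sostdc1 -0.088 to 0.64 in females. In males they were Ttr -0.028 to 4.56, Clic6 -0.65 to 1.98, Aqp1 -0.25 to 2.62 and F5 -0.52 to 2.33, each lowest without E59. For the interaction they were Kl -1.20 to 0.51, Clic6 -0.29 to 3.0, Aqp1 -3.27 to 0.32, Otx2 -1.89 to 0.76 and F5 -2.21 to 0.90, each highest without E59. None of these single-gene changes was called, and the cause was not tested.

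E59's fold over the median of the other libraries was 267 with TMM and 263 with upper-quartile scaling for Ttr, against 269. For Aqp1 it was 34.6 and 33.3, against 33.0. Each of the 8 moved by less than that SD of 1.04, a wide limit because it includes E59. Of the 10 genes most like the 8, 9 were shared with a prior count of 0.5 and 0 with Spearman's rho or without E59. No paired analysis was possible because the groups share no replicate numbers. Depth limits Folr1, Aqp1 and Otx2 most, with 0 to 22, 3 to 59 and 3 to 32 counts outside E59. Floors for counts of 0 cover counting error only. In males the 6 KD libraries hold E59, so diet and that library cannot be told apart with it included.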
